A study of Mus musculus with 32 samples.

Results

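Neural cultures of mouse embryonic stem cells (ESC) with the genotype Smarce1-MD were compared with cultures of the genotype Smarce1-MD(R42A) after 6 days of neural differentiation. Of the 32 libraries of the series, 8 are marked as neural by their titles and make up this comparison. They are 4 MD libraries, 2 each of the clone labels 09 and 30, and 4 R42A libraries, 2 each of the clone labels A04 and A10. All cells are of strain 129S5/SvEvBrd, both genotypes carry a tag at Smarce1, and no untagged neural cells enter. The stem cells had been kept with serum and LIF, and the neural medium is called RHA-B in the protocols of the labels and RHB-A (TAKARA#Y40001) in the treatment field. Total RNA was extracted in TRIzol and sequenced from KAPA Hyper Prep libraries. A genotype is thus represented by 2 clone labels. The labels do not say whether libraries of a clone label came from separate cultures. A p-value thus measures the spread between sums of libraries per clone label, which may be technical. In the main fit that spread is estimated over 4 groups, the 2 neural ones and the ESC of the same clone labels in both genotypes.

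The tag name MD is taken to stand for a mitotic degron, the destruction signal of cyclin B1, which removes a protein fused to it at the end of mitosis. R42A is taken as the mutated signal that no longer works. The labels spell out neither name, so both readings are background knowledge. Smarce1 encodes BAF57, a subunit of the BAF complexes, which use ATP to move nucleosomes. In neural tissue these complexes exchange subunits as progenitors stop dividing: ACTL6A gives way to ACTL6B and SS18 to SS18L1, also called CREST. Proneural basic helix-loop-helix (bHLH) factors drive progenitors out of the cell cycle, and the new neurons then make axonal microtubule proteins, ion channels, synaptic vesicle proteins and adhesion molecules. Actin and contractile genes driven by the serum response factor SRF, and genes of basement membranes, mark other states such as muscle, mesenchyme and epithelium.

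Levels are given in CPM, counts scaled to a common library size with TMM, and library values are listed in the order 09 library 1, 09 library 2, 30 library 1 and 30 library 2 for MD, and A04 library 1, A04 library 2, A10 library 1 and A10 library 2 for R42A. Library totals ran from 44426445 to 62803915 counts in MD and from 51736114 to 62236194 in R42A. Changes are MD against R42A, as a fold or as the fitted log2 change with its standard error (SE), and a gene was called where the adjusted p of the quasi-likelihood test in edgeR was under 0.05. Smarce1 RNA itself (chromosome 11, 99209047 to 99231017 in mm10) stood at 300, 295.6, 284.1 and 292.7 CPM in MD and at 226.3, 231.9, 235.1 and 227 CPM in R42A. The MD libraries were higher without overlap, by a log2 change of 0.34 ± 0.10 (adjusted p = 0.029 in edgeR). With any 1 of the 4 clones left out it was not called, at 0.32 to 0.38, adjusted p = 0.0986 to 0.146, and the change was -0.10 with each chromosome scaled separately. The degron acts on the protein, so the RNA does not check the labels.

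The libraries did not sort by clone label. In a chi-square comparison of counts over genes, the statistic per degree of freedom was 4.69 between the first libraries of A04 and A10 and 3.98 between the second, but 6.54 between the libraries of A04 and 9.92 between those of A10. In MD it was 3.0 within 09 and 10.2 within 30, and 9.08 and 5.64 between libraries of the same number. Every pair of libraries from different genotypes lay at 111 to 148, and no pair was within sampling noise. A clone label was therefore no closer a repeat than a library number in R42A, and results are given for clone sums with values per library beside them. Among 10275 genes with a mean of at least 10 CPM, the median absolute log2 ratio was 0.042 between 09 and 30 and 0.034 between A04 and A10, against 0.233 between the genotypes. Of these genes 506 differed at least 2-fold between the genotypes and 0 between the clones of either genotype.

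The cultures were neural by their markers in both genotypes. Summed over 5 neuron markers, Tubb3, Dcx, Map2, Elavl3 and Stmn2, libraries held 1650.8 to 1731.3 CPM in MD and 602.5 to 690.6 CPM in R42A. The progenitor markers Sox1, Sox2, Pax6 and Nes summed to 827.4 to 867.9 CPM in MD and 1067.2 to 1099.4 CPM in R42A. Of these 4, Nes was lower and Sox2 was called higher, at a log2 change of 0.44 ± 0.05 (adjusted p = 0.000633 in edgeR). Sox1 and Pax6 were not called in the main fit but were called in fits of the neural libraries without ESC. The ESC markers Pou5f1, Nanog and Zfp42 summed to 14.1 to 23.1 CPM in MD and 14.6 to 17 CPM in R42A, and the astrocyte markers Gfap, Aqp4 and Aldh1l1 to 7.4 to 8.86 and 6.62 to 8.36 CPM. Sums of oligodendrocyte lineage markers were 45.1 to 49.9 CPM in MD and 60.3 to 62.2 CPM in R42A, those of mesoderm 9.23 to 12.8 and 7.04 to 10.7 CPM, and those of endothelium 3.64 to 4.67 and 2.77 to 4.3 CPM. Of the ESC markers Nanog was called higher (log2 change 0.800), a call lost without A10 (0.686). Of the astrocyte markers Aqp4 was called lower (-1.045), a call lost without A10, 09 or 30 (-1.120 to -0.947). Of 3 oligodendrocyte lineage markers, Sox10 was called higher (1.769) and 1 other lower. Of 2 endothelial markers 1 was called higher, and of 3 mesoderm markers 0 were called. In bulk RNA, fewer cells of a type and less RNA per cell cannot be told apart, and this holds for every group described here.

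Of 23823 genes tested, with Y-linked genes left out, 8018 (33.7%) were called. In MD 4150 (17.4%) were higher and 3868 (16.2%) lower, and 1531 (6.43%) were at least 2-fold higher and 1010 (4.24%) at least 2-fold lower. These percentages are the background for the counts of members in the main fit below, not for counts with 1 clone left out. They depend on level: 15.2% of genes with a mean below 1 CPM were called, and 53.9% of those at 100 CPM or more. At 100 CPM or more, 437 of 2372 genes were higher and 842 lower. Lists of strongly expressed genes thus have a higher background. With 1 of the 4 clones left out the number called fell to between 3759 and 3963, and the number at least 2-fold changed from 2541 to between 1534 and 1589. All 4 MD libraries lay above all 4 R42A libraries for 6110 genes (25.6%) and below them for 6081 (25.5%), so a gap between the groups was common among genes that did not pass: it was present in 4409 of 15805 uncalled genes and in 7782 of 8018 called ones. Genes at the top of the expression range more often fell: of the called genes with a mean of at least 100 CPM, 34.2% were higher in MD, against 61.9% at 1 to 10 CPM. The 1193 protein-coding genes at least 2-fold higher in MD took 2.52% to 2.71% of all CPM in MD libraries and 0.938% to 1.03% in R42A. The 789 at least 2-fold lower took 0.874% to 0.932% in MD and 2.24% to 2.38% in R42A.

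**Figure D1:**
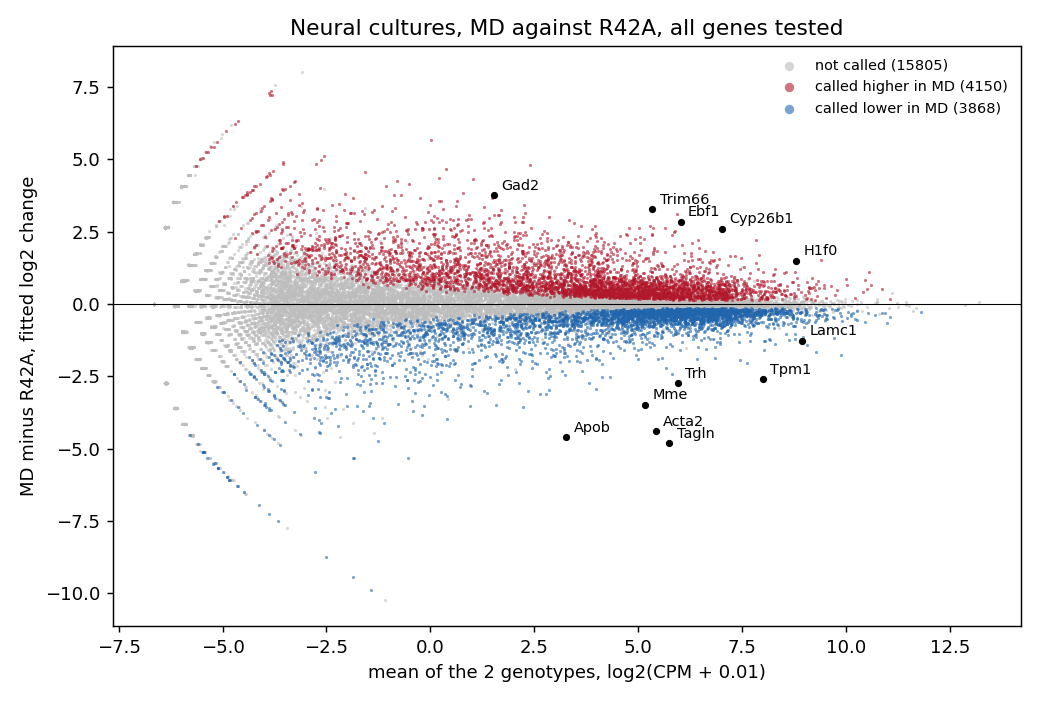
Fitted log2 change of MD against R42A (vertical) plotted against the mean level of the 2 genotypes as log2(CPM + 0.01) (horizontal) for the 23823 genes tested in neural cultures. Each point is a gene, red if called higher in MD (4150), blue if called lower (3868) and grey if not called; Tagln, Acta2 and Apob stand out below and Gad2, Trim66, Ebf1 and Cyp26b1 above.

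The 12 largest increases were taken from called protein-coding genes of at least 5 CPM whose MD and R42A libraries did not overlap. They included Gad2, Mapt, Ppfia2, Kcnh7, Tlx1 and Lbx1, which neurons express. Gad2 (chromosome 2, 22622205 to 22693874), which encodes an enzyme that makes the inhibitory transmitter GABA, stood at 4.63, 5.62, 6.37 and 4.72 CPM in MD and at 0.26, 0.438, 0.294 and 0.612 CPM in R42A. The lowest MD library was over 7 times the highest R42A library, and the fold was 13.5 (log2 change 3.76 ± 0.23, adjusted p = 0.000121 in edgeR). Mapt (chromosome 11, 104231390 to 104332090) encodes tau, the protein that lines axonal microtubules. It stood at 104.9, 112.1, 112.2 and 108.6 CPM in MD and at 12.4, 13.5, 13.1 and 12.1 CPM in R42A, with each group in a narrow band far from the other (8.55-fold, log2 change 3.10 ± 0.37, adjusted p = 0.0011 in edgeR). Ppfia2, a liprin of the presynaptic active zone, rose 8.8-fold and Kcnh7, a potassium channel of the ERG family, 8.51-fold. The homeobox factors Tlx1 and Lbx1, which specify dorsal spinal and hindbrain interneurons, rose 9.43-fold and 8.44-fold. The genes Trim66 and Cygb are not specific to neurons. Trim66, a chromatin reader gene, stood at 63.9, 76.4, 88.4 and 66 CPM in MD and 7.36, 9.66, 7.5 and 6.02 CPM in R42A (9.69-fold), while Cygb, which encodes cytoglobin, rose 8.37-fold and Fbll1, a fibrillarin-like gene, 12.6-fold. The largest fitted change, that of Usp26, a deubiquitinase gene on the X chromosome, was 27.9-fold (adjusted p = 0.0195 in edgeR), from 0.408, 0.404, 0.325 and 0.342 CPM to 10.4, 10.5, 11.1 and 8.86 CPM. Its library values did not overlap, but the call was lost with any 1 clone left out (log2 change 4.66 to 4.94, adjusted p = 0.0635 to 0.117) and without the filter on low counts.

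The genes with the 12 largest decreases were chosen in the same way, without overlap between the genotypes. Among them, Tagln (chromosome 9) encodes the actin-binding protein transgelin. It stood at 3.96, 4.14, 3.56 and 3.08 CPM in MD and 94.3, 108.1, 108.3 and 106.4 CPM in R42A. Every MD library was below 5 CPM and every R42A library above 90, a 28.2-fold difference (log2 change -4.82 ± 0.51, adjusted p = 0.000664 in edgeR). Apob, the apolipoprotein made by yolk sac endoderm, liver and intestine, stood at 0.819, 0.717, 0.775 and 0.745 CPM in MD and 25.2, 11.6, 22 and 15.6 CPM in R42A. Its R42A libraries spread over a 2-fold range while the MD libraries lay close together, and the difference was 24.2-fold (-4.60 ± 0.32, adjusted p = 0.000168 in edgeR). Mme (chromosome 3), which encodes neprilysin, a membrane peptidase, had 5.75, 6.36, 5.43 and 6.31 CPM in MD and 68.6, 64.6, 70.3 and 60.1 CPM in R42A. Both groups were tight, and the 11.1-fold decrease had an SE of 0.14 on the log2 scale (adjusted p = 5.56e-05 in edgeR). The protease receptor gene F2rl1 fell 8.71-fold, Thbd, which encodes thrombomodulin, 7.99-fold, and Tinagl1, a basement membrane protein gene, 8.74-fold. The acid phosphatase gene Acpp and the aquaporin gene Aqp8 fell 11.9-fold and 11.3-fold. Clu, which encodes the secreted chaperone clusterin and was not among these 12, fell 5.72-fold.

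**Figure D2:**
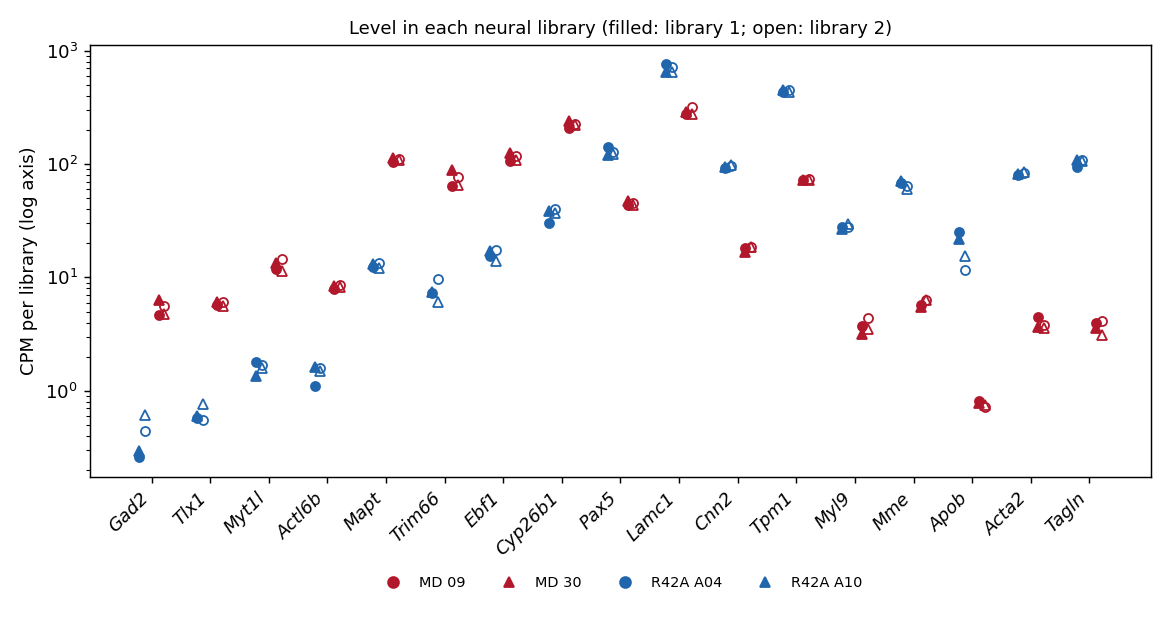
Level of 17 genes in each of the 8 neural libraries, in CPM on a log axis. Red symbols are MD (circles 09, triangles 30), blue symbols R42A (circles A04, triangles A10), filled for library 1 and open for library 2. In each of the 17 genes the red and blue symbols do not overlap. For genes named for the largest increases and decreases this was a condition of the choice.

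Of the genes that changed at least 2-fold, those with the largest gain in CPM included linker and variant histones. H3f3b, which encodes histone H3.3 and lies on chromosome 11, stood at 1994.5, 2126, 2098.2 and 1997.7 CPM in MD and 917.7, 998.7, 982 and 936.4 CPM in R42A (2.14-fold). H1f0, the linker histone of cells that have stopped dividing, stood at 641, 700.6, 689.4 and 600.0 CPM in MD and 224.6, 250.8, 230.9 and 226.1 CPM in R42A. Its lowest MD library was more than 2 times its highest R42A library (2.83-fold, log2 change 1.5 with an SE of 0.13, adjusted p = 0.000306 in edgeR). Dcx, the microtubule protein of migrating neurons, rose 4.62-fold to a mean of 374 CPM. The largest losses in CPM were in cytoskeletal and basement membrane genes. Flna, the actin cross-linker filamin A, fell from 1144.2, 1199, 1148 and 1195.1 CPM to 514.2, 529.8, 527.9 and 490.3 CPM (2.27-fold, adjusted p = 8.21e-05 in edgeR), and Tmsb4x, which encodes the actin-binding peptide thymosin beta 4, fell 2.22-fold. Col4a1 fell from 1653.8, 1595, 1268.9 and 1356.2 CPM to 406.5, 480.1, 406.6 and 422.6 CPM, and that call was lost without clone 30, at a log2 change of -1.72, and without the filter on low counts.

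Among transcription factors that start neurogenesis, MD cultures had more RNA of most proneural and neuronal bHLH factors. Of 18 tested, 11 were higher and 1 lower, with a median log2 change of 1.19 against -0.001 over all genes tested. With any 1 clone left out 10 of them passed as higher. Nhlh2 (chromosome 3), a bHLH factor of newborn neurons, stood at 96.6, 99.7, 107 and 94.4 CPM in MD and 17.2, 18.2, 19.7 and 15.8 CPM in R42A, and its relative Nhlh1 at 50.6, 55.5, 54.4 and 53.8 and 11.9, 13.3, 12.4 and 11.3 CPM. For both, the MD and R42A libraries lay far apart, and the fitted folds were 5.6 and 4.36 (adjusted p = 4.88e-05 and 0.000125 in edgeR). Neurod4 and Neurod1, which act in newborn neurons, rose 3.33-fold and 2.28-fold, and Bhlhe23 4.88-fold. Ascl4 was the 1 member called lower, at 0.273, 0.149, 0.122 and 0.186 CPM in MD and 0.501, 0.421, 0.465 and 0.432 CPM in R42A, a call lost without A04, A10 or 30 (log2 change -1.61 to -1.10, adjusted p = 0.0345 to 0.0807 over the 4 clones left out).

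The 250 bases before the RefSeq start of Nhlh2 are shown because this gene had the smallest adjusted p of the list and its window holds the E-box CAGATG, a site of a kind that proneural bHLH factors bind. The window is chr3:102009895-102010144 in GRCm38.p6 (mm10), plus strand, with the E-box in capitals.
Nhlh2: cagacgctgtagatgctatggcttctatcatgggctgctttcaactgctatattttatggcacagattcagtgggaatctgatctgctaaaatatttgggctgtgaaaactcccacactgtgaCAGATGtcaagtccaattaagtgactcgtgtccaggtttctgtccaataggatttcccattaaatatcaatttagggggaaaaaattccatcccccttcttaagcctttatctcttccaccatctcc
CAGATG or its reverse complement was found in 5 of the 15 tested bHLH factors with a RefSeq window of 300 bases (33.3%), in 14.8% of tested genes, in 20.4% of genes at least 2-fold higher and in 16.2% of genes at least 2-fold lower in MD. In Nhlh2 it begins 127 bases before the start, in Nhlh1 203 bases, and in Ascl4, the 1 member called lower, 110 bases. Among the 9 members called higher with a window, 3 held it (33.3%). The E-box CAGCTG was found in 3 of the 15 (20%), in 18.8% of tested genes, in 23.5% of genes at least 2-fold higher and in 22.8% of those at least 2-fold lower. These matches are descriptions of the letters in the window and were not tested.

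Other transcription factors of postmitotic neurons showed the same direction more often than not: of 56 tested, 39 were higher and 4 lower, and 30 were at least 2-fold higher (median 1.33; 29 to 30 passed as higher with any 1 clone left out). Ebf1, a factor of differentiating neurons on chromosome 11, stood at 107.2, 117.6, 125.1 and 107.9 CPM in MD and 15.3, 17.6, 17.2 and 13.9 CPM in R42A (7.16-fold, adjusted p = 5.56e-05 in edgeR). Every MD library exceeded 100 CPM and every R42A library was below 20. The zinc finger factors Myt1l, Myt1 and St18, which repress non-neuronal genes, rose 8.07-fold, 4.97-fold and 4.28-fold. Scrt2, a repressor of neuronal precursors, rose 5.15-fold. Dlx1, Lhx1 and Tal1, which act in inhibitory neurons among others, rose 7.72-fold, 4.54-fold and 5.82-fold, and Lhx9 and Onecut1 rose 3.71-fold and 3.13-fold. The members called lower were En1, En2, Evx1 and Tal2, and 0 to 1 of them passed with any 1 clone left out. En2 stood at 50.9, 48.8, 49.9 and 52.9 CPM in MD and 154.1, 158.5, 135 and 143.9 CPM in R42A, with no overlap, and its call was lost without A04, 09 or 30 (log2 change -1.63 to -1.47, adjusted p = 0.0367 to 0.0617 over the 4 clones left out).

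Factors that mark position along the neural tube differed too. Of 30 midbrain, hindbrain and dorsal neural tube factors, 3 were higher and 12 lower (median -0.25), and with any 1 clone left out 0 passed as higher and 6 to 8 as lower. Pax5, a factor of the midbrain-hindbrain boundary, stood at 43.9, 45.5, 47.7 and 44 CPM in MD and 141.1, 126.9, 119.5 and 123 CPM in R42A, where the lowest library was over 2 times the highest of MD (2.81-fold, adjusted p = 0.000163 in edgeR). Fgf8, the signal released at that boundary, fell 3.26-fold, from 10.7, 9.92, 8.26 and 9.35 CPM to 2.7, 3.15, 2.7 and 3.21 CPM, and Fgf17, a related ligand, 6.19-fold. Otx2, which marks forebrain and midbrain, fell 1.64-fold. Of 25 forebrain and eye-field factors 8 were higher and 2 lower (median 0.07; 6 to 7 higher and 1 to 2 lower with 1 clone left out). Lhx2, a factor of cortex and eye progenitors, rose from 12.9, 14.9, 14.6 and 15.7 CPM to 51.2, 52.6, 52.8 and 55.9 CPM (3.64-fold, adjusted p = 9.09e-05 in edgeR). Of 35 Hox genes tested 4 were higher and 5 lower (0 higher and 3 lower with 1 clone left out), most of them below 1 CPM.

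Genes of the neuronal cytoskeleton and growth cone moved in 1 direction. Of 35 tested, 26 were higher and 0 lower, and 20 were at least 2-fold higher (median 1.07; 23 to 24 higher and 0 lower with 1 clone left out). Kif5a, a kinesin of axonal transport, stood at 102.9, 107.8, 112.2 and 103.7 CPM in MD and 29, 33.4, 32.5 and 29.6 CPM in R42A. The neurofilament gene Nefm rose 3.21-fold from a mean of 112.8 CPM, and Gap43, a growth cone protein gene, 3.13-fold. The stathmin genes Stmn4 and Stmn2, whose products release tubulin at growth cones, rose 5.21-fold and 2.87-fold, and Cdk5r1, the neuronal activator of CDK5, 4.78-fold. Tubb3 rose 2.17-fold, but its call was lost with any 1 clone left out, at log2 changes of 1.10 to 1.14, adjusted p = 0.0972 to 0.123.

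Regulators of neuronal splicing were more often higher than lower. Of 28 RNA-binding and splicing regulators, 15 were higher and 6 lower (median 0.34; 10 to 11 and 3 to 4 with any 1 clone left out). Srrm3, which drives inclusion of neuronal microexons, rose 3.96-fold, from 4.99, 6.32, 4.31 and 5.04 CPM to 19.3, 19.8, 21.7 and 20.8 CPM. Celf4 and Rbfox1 rose 3.26-fold and 4.4-fold. Ptbp1, which holds back neuronal splicing in progenitors, stood at 392.7, 392.2, 394.7 and 417 CPM in MD and 564.9, 572.5, 555.5 and 594.9 CPM in R42A, a small but tight decrease (1.44-fold, log2 change -0.52 ± 0.06, adjusted p = 0.000991 in edgeR). The host transcript of the neuronal microRNA miR-124, Mir124a-1hg, rose 3.92-fold, from 8.68, 9.37, 8.99 and 7.19 CPM to 31.8, 31.8, 34.8 and 36.8 CPM. The epithelial splicing factor gene Esrp2 fell 2.22-fold.

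Of 75 voltage-gated channel genes, 29 were higher and 11 lower (median 0.46), and 20 to 23 and 4 to 6 passed with any 1 clone left out. Scn3a, the sodium channel of immature neurons, stood at 71, 74.2, 74.5 and 64.7 CPM in MD and 10.3, 12.2, 13 and 10.8 CPM in R42A (6.14-fold, adjusted p = 0.000256 in edgeR). Cacna2d1, an auxiliary calcium channel subunit, rose 5.4-fold and Scn9a 4.28-fold. The potassium channel gene Kcna1 went the other way, from 11.3, 13.4, 10.6 and 10.9 CPM to 2.23, 2.45, 2.25 and 2.11 CPM (5.1-fold lower), as did Kcng1 and Kcna5. Of 54 ligand-gated receptor genes, 20 were higher and 2 lower (median 0.70), and 7 to 8 passed as higher with any 1 clone left out. They included the inhibitory receptor subunits Glra1 (7.05-fold) and Gabra2 (5.58-fold) and the excitatory AMPA receptor subunit Gria2, which rose 5.39-fold, from 8.79, 7.84, 9.33 and 7.08 CPM to 45.5, 45.9, 47.3 and 39 CPM.

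Of 57 presynaptic vesicle and release genes, 35 were higher and 4 lower (median 0.61; 23 to 25 rose with any 1 clone left out). Syt4, a synaptotagmin of dense-core vesicles, rose 5.15-fold, from 3.78, 3.62, 4.17 and 3.71 CPM to 18.7, 20.1, 21.4 and 18.2 CPM. Sv2a, a synaptic vesicle glycoprotein, rose 3.36-fold, Chgb, a granin of secretory granules, 3.15-fold, and Snap25, a SNARE of the nerve terminal, 2.49-fold. Of 34 genes of transmitter identity and neuropeptides, 17 were higher and 6 lower (median 0.73; 10 to 12 and 2 with any 1 clone left out). Inhibitory identity was represented by Gad2 and by the vesicular GABA and glycine transporter Slc32a1 at 2.35, 3.33, 3.25 and 2.59 CPM in MD and 0.278, 0.32, 0.17 and 0.216 CPM in R42A (11.8-fold). The vesicular glutamate transporter gene Slc17a6 had 26.3, 26.2, 28 and 25.8 CPM in MD and 5.12, 5.02, 6.26 and 4.79 CPM in R42A, a 5-fold difference without overlap that did not pass with any 1 clone left out (log2 change 2.25 to 2.39, adjusted p = 0.143 to 0.194), in DESeq2 or without the filter on low counts. Trh, which encodes thyrotropin-releasing hormone, went against the list, at 14.4, 19.3, 18.4 and 12.3 CPM in MD and 106.1, 114.4, 103.3 and 108.8 CPM in R42A (6.63-fold lower, adjusted p = 0.000362 in edgeR).

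Of 41 neural adhesion molecules, 30 were higher and 2 lower (median 1.24; 19 to 22 higher and 0 lower with any 1 clone left out). Chl1, a relative of L1, rose 6.06-fold, from 3.73, 4.58, 4.34 and 4.27 CPM to 24.7, 28.1, 27.7 and 21.3 CPM. The teneurin gene Tenm2 rose 5.21-fold and Ncam1, which is also made by progenitors, 2.43-fold. Of 69 protocadherin genes, 28 were higher and 2 lower, and 8 to 10 passed as higher with any 1 clone left out. Most of those called belong to the alpha and beta clusters on chromosome 18. Reads may be shared between members of a cluster, so their counts per gene are uncertain. Of 41 genes of the Slit, netrin and ephrin systems 14 were higher and 8 lower (9 to 10 higher and 4 lower with 1 clone left out). Robo3, the receptor that lets commissural axons cross the midline, stood at 90, 97.9, 104.8 and 108.9 CPM in MD and 17.3, 18.4, 18.1 and 16.1 CPM in R42A (5.72-fold, adjusted p = 8.83e-05 in edgeR). The ephrin receptor gene Epha3 rose 3.47-fold, while Epha2 and Ephb4, receptors also found in epithelium and vessels, fell 1.99-fold and 1.79-fold. Of 31 semaphorin, plexin and neuropilin genes 12 were higher and 6 lower (6 to 8 higher and 3 lower with 1 clone left out), with Plxna4 3.19-fold higher and the secreted ligand Sema3c 2.61-fold lower.

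Progenitor genes were more often called higher than lower, with a small median change. Of 41 progenitor and radial glial genes, 15 were higher and 2 lower (median 0.16; 8 to 9 higher and 1 lower with any 1 clone left out). Sox9, a glial and stem cell factor on chromosome 11, stood at 52.7, 57.9, 60 and 56.2 CPM in MD and 19.2, 21.2, 19.4 and 22.4 CPM in R42A (2.77-fold). Ednrb, an endothelin receptor of radial glia, rose 2.38-fold and the glutamate transporter gene Slc1a2 2.3-fold. The intermediate filament gene Nes, a standard progenitor marker, was lower, at 287.2, 276.1, 292.7 and 284.6 CPM in MD against 571.5, 597.2, 615.5 and 576.7 CPM in R42A (2.07-fold). In the Notch pathway, which keeps progenitors from differentiating, 9 of 32 genes were higher and 5 lower (6 to 7 higher and 2 lower with 1 clone left out). Its ligand genes Dll1 and Dll3, which nascent neurons express, rose 1.46-fold and 1.88-fold. Of 20 glial lineage genes 7 were higher and 3 lower (5 to 7 higher and 1 to 2 lower with 1 clone left out).

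**Figure D3:**
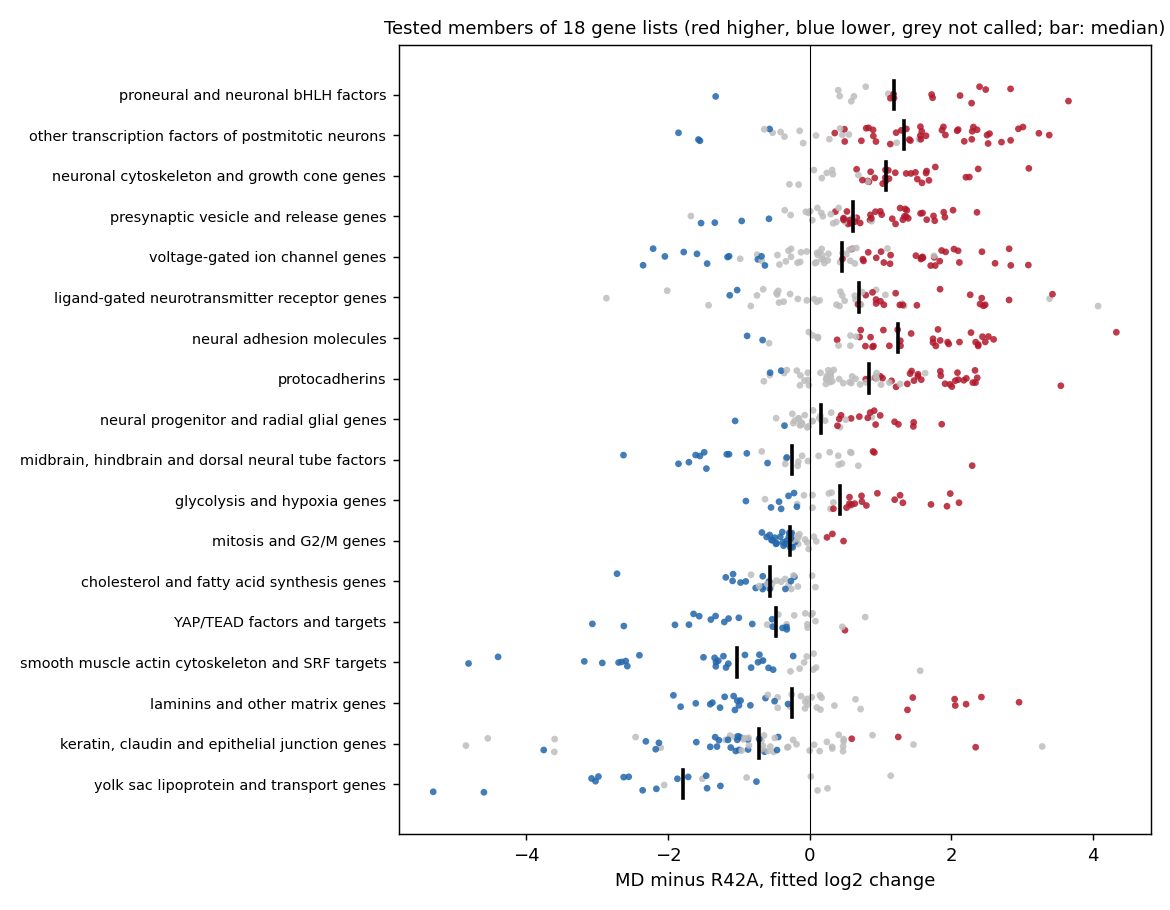
Fitted log2 change of MD against R42A (horizontal) for the tested members of 18 of the 57 gene lists, 1 row per list. Each point is a gene, red if called higher in MD, blue if called lower and grey if not called, and the black bar is the median of the row, which lies at 1.33 for postmitotic neuron factors and -1.03 for contractile and SRF target genes.

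Contractile actin genes and targets of SRF were lower as a group. Of 34 tested, 0 were higher and 25 lower, 17 of them at least 2-fold (median -1.03), and 19 to 20 passed with any 1 clone left out. Acta2, the actin of smooth muscle, fell 21.1-fold, from 79.6, 83, 81.7 and 84.5 CPM to 4.49, 3.81, 3.66 and 3.6 CPM. Myl9, a regulatory light chain of myosin, stood at 3.69, 4.38, 3.15 and 3.48 CPM in MD and 27.6, 27.8, 26.9 and 29.4 CPM in R42A, with a gap of over 6 times between the highest MD and the lowest R42A library (log2 change -2.93 ± 0.16, adjusted p = 9.09e-05 in edgeR). Tpm1, a tropomyosin, fell 6.05-fold, from 430.8, 448.3, 449.4 and 432.2 CPM to 72.8, 74.1, 72.1 and 72.7 CPM. Cnn2, a calponin, fell 5.29-fold, from 92.4, 97, 93.4 and 98.1 CPM to 18.1, 18.7, 16.7 and 18.7 CPM. In each of these 4 genes the 4 libraries of a genotype lay within 1.4 times of each other. The focal adhesion gene Vcl fell 2.5-fold, the non-muscle myosin gene Myh9 2.32-fold, the tropomyosin gene Tpm4 2.45-fold and the filamin gene Flnc 4.62-fold. Srf itself stood at 22, 24.7, 23.9 and 24.2 CPM in MD and 38.5, 39.6, 33.7 and 44 CPM in R42A (1.63-fold lower, adjusted p = 0.000717 in edgeR). Actg1, the cytoplasmic gamma actin on chromosome 11, was not called, at 1719.6, 1764.6, 1702.4 and 1812.3 CPM in MD and 1625.9, 1692.5, 1667.7 and 1725.6 CPM in R42A (log2 change 0.06 ± 0.08, adjusted p = 0.653 in edgeR). With each chromosome scaled separately it was called lower, at -0.39. The smooth muscle and mesenchyme markers did not move together: Acta2 and Tagln fell, while Col1a1, Col1a2 and Pdgfrb were called higher, in calls lost with any 1 clone left out for Col1a1 (log2 change 1.97 to 2.08, adjusted p = 0.0668 to 0.096) and Pdgfrb (log2 change 0.87 to 1.08, adjusted p = 0.0831 to 0.134), and the sum of the 5 was 69.8 to 75.7 CPM in MD and 191.1 to 212.1 CPM in R42A. Their part in the result was not tested.

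SRF binds the CArG box, 2 C, 6 A or T and 2 G. The 250 bases before the RefSeq start are shown for 4 members that fell and hold a box there, Myl9, Cnn2, Vcl and Srf, and for Actg1, which holds a box and was not called. Capitals mark the box, and coordinates are in GRCm38.p6 (mm10). The windows are chr2:156775214-156775463 (plus strand) for Myl9, chr10:79988350-79988599 (plus strand) for Cnn2, chr14:20929148-20929397 (plus strand) for Vcl, chr17:46556163-46556412 (minus strand) for Srf and chr11:120348496-120348745 (minus strand) for Actg1.
Myl9: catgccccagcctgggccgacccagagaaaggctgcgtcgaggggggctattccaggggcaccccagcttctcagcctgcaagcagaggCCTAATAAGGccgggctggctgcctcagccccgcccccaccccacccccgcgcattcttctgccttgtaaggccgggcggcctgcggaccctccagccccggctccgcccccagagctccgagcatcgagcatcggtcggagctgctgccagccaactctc
Cnn2: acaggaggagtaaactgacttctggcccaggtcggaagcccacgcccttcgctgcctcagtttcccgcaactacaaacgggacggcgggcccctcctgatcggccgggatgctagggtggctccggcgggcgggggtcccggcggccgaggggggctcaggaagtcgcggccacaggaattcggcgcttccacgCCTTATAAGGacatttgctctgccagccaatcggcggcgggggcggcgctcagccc
Vcl: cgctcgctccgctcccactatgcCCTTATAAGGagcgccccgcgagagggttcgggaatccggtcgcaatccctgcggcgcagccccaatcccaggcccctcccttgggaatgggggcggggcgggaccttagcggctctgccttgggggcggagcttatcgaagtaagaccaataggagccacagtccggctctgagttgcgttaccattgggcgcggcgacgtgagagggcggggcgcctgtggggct
Srf: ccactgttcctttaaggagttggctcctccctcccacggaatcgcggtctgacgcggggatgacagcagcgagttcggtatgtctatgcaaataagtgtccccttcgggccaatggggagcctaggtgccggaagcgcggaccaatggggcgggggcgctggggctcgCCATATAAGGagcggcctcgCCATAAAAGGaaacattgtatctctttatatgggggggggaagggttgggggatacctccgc
Actg1: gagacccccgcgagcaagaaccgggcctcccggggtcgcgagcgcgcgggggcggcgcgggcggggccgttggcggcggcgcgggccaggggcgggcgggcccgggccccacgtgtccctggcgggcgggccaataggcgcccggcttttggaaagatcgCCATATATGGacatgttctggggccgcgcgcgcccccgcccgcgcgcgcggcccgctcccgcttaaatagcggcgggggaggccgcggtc
The box begins 161 bases before the start in Myl9, 56 in Cnn2, 227 in Vcl and 90 in Actg1, and Srf holds a pair, at 82 and 62 bases. On either strand of a 300-base window, 7 of the 28 tested members with an entry held a box (25%), and 6 of the 22 members called lower (27.3%). The share was 1.68% over tested genes with a window, 2.43% among genes called lower, 3.28% among genes at least 2-fold lower and 1.35% among genes called higher. In the other members with an entry, Acta2 among them, these letters are not in this window. The list was put together from actin cytoskeleton genes and SRF targets, so the high share describes how the list is made up.

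Many genes downstream of YAP and TEAD, which respond to adhesion and cell tension, were lower too. Of 30 tested, 1 was higher and 17 lower (median -0.48; 9 to 13 lower with any 1 clone left out). The matricellular genes Ccn1 and Ccn2 are textbook targets. Ccn1 stood at 18, 20.7, 17.1 and 19.7 CPM in MD and 69.2, 72.6, 69.9 and 68.7 CPM in R42A (3.74-fold lower), and Ccn2 at 29.6, 31.5, 29.6 and 29.2 and 79.1, 83, 74.4 and 78.8 CPM (2.63-fold lower, adjusted p = 0.000118 in edgeR). The kinase gene Lats2 and the scaffold gene Amotl2, negative regulators that YAP itself induces, fell 2-fold and 1.75-fold. The 1 member called higher was Gadd45a, a gene also induced by stress (1.41-fold). Of 47 genes for actin-binding proteins, small GTPases and coronins 10 were higher and 19 lower (3 to 6 higher and 11 to 12 lower with 1 clone left out). The annexin gene Anxa2 and its partner family gene S100a11 fell 3.61-fold and 4.94-fold, and the scaffold gene Akap12 2.4-fold.

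Of 41 laminins and other matrix genes, 7 were higher and 16 lower (4 to 7 higher and 9 lower with 1 clone left out). Of 42 collagen genes 9 were higher and 13 lower (6 to 7 higher and 7 to 9 lower with 1 clone left out). Those that fell included basement membrane components. Lamc1, the gamma chain shared by most laminins, stood at 275, 319.8, 287.8 and 277.8 CPM in MD and 761.2, 720.1, 656.9 and 655.1 CPM in R42A, and Lamb1 at 163.3, 199.9, 168.5 and 163.2 and 495.4, 473.2, 423.9 and 410.0 CPM. In both, the lowest R42A library was over 2 times the highest MD library (2.4-fold and 2.59-fold, adjusted p = 0.000125 and 0.00072 in edgeR). Hspg2, which encodes perlecan, fell 3.05-fold, the nidogen gene Nid1 2.1-fold and the laminin receptor subunit gene Itga3 3.71-fold. Other members rose. The fibrillar collagen gene Col3a1 stood at 38.2, 37.3, 38.2 and 34.6 CPM in MD and 8.88, 9.91, 9.27 and 11.9 CPM in R42A (3.74-fold), another, Col1a2, rose 4.41-fold, and the laminin gene Lama4 4.63-fold. Col1a2 did not pass without A04 or A10 (log2 change 2.10 to 2.17, adjusted p = 0.0441 to 0.0657 over the 4 clones left out). Of 31 neural crest and mesenchyme genes 11 were higher and 4 lower (5 to 7 higher and 2 lower with 1 clone left out). The crest factor Tfap2b rose 2.48-fold, from 33.6, 34.6, 34.9 and 29.7 CPM to 78.9, 79, 85.4 and 87.2 CPM, and the neurotrophin receptor gene Ngfr 2.74-fold. The crest markers Sox10, Tfap2a and Foxd3 summed to 7.54 to 8.81 CPM in MD and 2.05 to 2.41 CPM in R42A. Tfap2a, Tfap2b and Ngfr are also expressed by neurons, and the part of crest cells in the result was not tested.

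Many genes of yolk sac endoderm and of epithelium were lower. Of 22 yolk sac lipoprotein and transport genes, 0 were higher and 15 lower, 14 of them at least 2-fold (median -1.79; 10 to 12 lower with any 1 clone left out). Beside Apob, the uptake receptor gene Lrp2 stood at 163.3, 187.7, 183.4 and 148.6 CPM in MD and 424.3, 419.2, 400.8 and 403.9 CPM in R42A (2.39-fold), and Amn, whose product works with the vitamin B12 receptor, fell 8.46-fold. Apoe, a lipoprotein gene also made by glia, fell 2.73-fold and Ttr, which encodes transthyretin, 3.28-fold. Of 23 endoderm factors 3 were higher and 6 lower (3 higher and 4 to 5 lower with 1 clone left out), with Hnf4a, a master factor of visceral endoderm and liver, at 3.67, 4.14, 3.28 and 3.58 CPM in MD and 11.5, 9.3, 8.31 and 8.48 CPM in R42A (2.56-fold lower). The 4 endoderm markers Sox17, Gata4, Gata6 and Foxa2 summed to 53.8 to 69.2 CPM in MD and 91.5 to 119 CPM in R42A. In the main fit 0 of 4 were called, but all 4 were called in fits of the neural libraries without ESC. Of 66 keratin, claudin and epithelial junction genes 3 were higher and 22 lower (median -0.71; 14 to 20 lower with any 1 clone left out). Cdh1, which encodes E-cadherin, stood at 27, 29.3, 26.5 and 28.3 CPM in MD and 68.4, 58.6, 57.1 and 56 CPM in R42A (2.17-fold lower), and the desmosome gene Dsp fell 3.03-fold. The epithelial markers Krt8, Krt18 and Epcam summed to 68.8 to 82.3 CPM in MD and 112.9 to 140.7 CPM in R42A. Krt8 and Krt18 were not called in the main fit but were called in fits of the neural libraries without ESC. Epcam was called lower, a call lost without A04, 09 or 30 (log2 change -0.76 to -0.67 over the 4 clones left out). The part of other cell types in these differences was not tested.

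Many cell cycle genes were lower by small amounts. Of 39 mitosis and G2/M genes 3 were higher and 25 lower (median -0.27; 12 to 19 lower with any 1 clone left out), and of 39 G1/S and replication genes 4 were higher and 20 lower (median -0.17; 7 to 10). Plk1, a mitotic kinase, stood at 61.9, 58.3, 59.9 and 65.4 CPM in MD and 98.1, 94.2, 94.4 and 104.4 CPM in R42A (1.6-fold lower, adjusted p = 0.000231 in edgeR). Cdk1 and Mki67 fell 1.44-fold and 1.31-fold. Chromosome 8, with a median log2 change of -0.276, holds 6 of the 20 G1/S and replication genes called lower. It holds 0 of the 25 mitosis and G2/M genes called lower. Chromosome 11, with a median of 0.476, holds 2 of the 4 G1/S and replication genes called higher. The 3 mitotic genes that were higher, Top2a, Hmmr and Birc5, all lie on chromosome 11, and with each chromosome scaled separately none of them passed as higher, at log2 changes of 0.03, -0.13 and -0.20. Birc5 then passed as lower, and it was not called without A04 or 09 (log2 change 0.21 to 0.28, adjusted p = 0.0372 to 0.0806 over the 4 clones left out). Of 19 genes linked to leaving the cell cycle 7 were higher and 4 lower (3 to 4 higher and 2 lower with 1 clone left out): Cdkn2c, a CDK4/6 inhibitor gene, rose 2.16-fold and the cyclin gene Ccnd3 fell 1.98-fold, from 159, 175.6, 160.4 and 177.1 CPM to 82.1, 86, 82.9 and 89.1 CPM. Of 25 genes of p53 and its targets 3 were higher and 14 lower (1 to 2 higher and 8 to 9 lower with 1 clone left out), led by Perp, which encodes a desmosomal protein, at 3.49-fold lower. All 8 called genes of 14 in the list of LIN28 and let-7 targets were lower (0 higher and 5 lower with 1 clone left out): Lin28a stood at 146.3, 147.3, 152.6 and 150.7 CPM in MD and 266.7, 255.6, 250.9 and 272.4 CPM in R42A, and Trim71 fell 1.67-fold.

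Cholesterol and fatty acid synthesis genes were lower in 16 and higher in 0 of 31 cases (median -0.56; 8 to 9 lower with any 1 clone left out), and in 28 of 31 the 4 MD libraries lay below the 4 R42A libraries. Idi1, an isomerase of the mevalonate pathway, stood at 63.3, 57.9, 56.4 and 58.5 CPM in MD and 140.8, 120.6, 143.3 and 130.4 CPM in R42A (2.27-fold lower, adjusted p = 0.00143 in edgeR). Of 34 glycolysis and hypoxia genes 17 were higher and 7 lower (median 0.43; 11 to 14 and 1 to 3 with any 1 clone left out). Pfkp, the platelet-type phosphofructokinase, stood at 142, 155.9, 144.9 and 118.7 CPM in MD and 42.8, 37.9, 32.8 and 34.2 CPM in R42A (3.84-fold, adjusted p = 9.09e-05 in edgeR). The lactate exporter gene Slc16a3, on chromosome 11, rose 4.32-fold, Vegfa, a target of hypoxia-inducible factor, 2.3-fold, and Bnip3, another target, 2.49-fold. Of 81 nuclear genes of oxidative phosphorylation 15 were higher and 15 lower (6 to 10 higher and 4 to 11 lower with 1 clone left out), and of 11 mitochondrially encoded genes 0 were higher and 6 lower (0 higher and 3 to 4 lower with 1 clone left out), among them mt-Nd5 at a log2 change of -0.63 ± 0.04. Of 82 ribosomal protein genes 10 were higher, 7 of them on chromosome 11, and 4 lower (7 to 8 higher and 3 to 4 lower with 1 clone left out). Of 19 retinoic acid pathway genes 5 were higher and 4 lower (median -0.26; 3 to 4 higher and 1 to 3 lower with 1 clone left out). Cyp26b1, which encodes a hydroxylase that clears retinoic acid, stood at 207.7, 225.7, 237.9 and 220.7 CPM in MD and 30.3, 40.1, 38.9 and 36.9 CPM in R42A (6.09-fold, adjusted p = 4.88e-05 in edgeR).

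Signalling genes were mixed. Of 39 FGF ligands and feedback genes of ERK signalling 7 were higher and 15 lower (median -0.42; 1 to 2 and 8 to 11 with any 1 clone left out). The feedback phosphatase gene Dusp6 stood at 45.1, 50.2, 47.6 and 46.4 CPM in MD and 97.7, 102, 101.3 and 97.6 CPM in R42A, and the ETS factor gene Etv5 fell 1.98-fold. Of 20 Hedgehog genes 3 were higher and 6 lower (3 higher and 5 lower with 1 clone left out): the target genes Ptch1 and Hhip rose 1.4-fold and 2.67-fold, and the transducer gene Smo fell 1.47-fold. Of 40 BMP, Nodal and TGF-beta genes 6 were higher and 10 lower (2 to 4 higher and 6 to 8 lower with 1 clone left out), with the receptor gene Bmpr1b 3.76-fold higher. Of 55 Wnt genes 7 were higher and 16 lower (4 to 5 higher and 8 lower with 1 clone left out).

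Among subunits of the SWI/SNF complexes, those of neurons were among the higher ones. Of 30 tested, 10 were higher and 4 lower (median 0.07; 3 to 4 and 1 with any 1 clone left out). Actl6b, the subunit of postmitotic neurons, stood at 7.92, 8.62, 8.33 and 8.15 CPM in MD and 1.09, 1.6, 1.61 and 1.49 CPM in R42A (5.66-fold, adjusted p = 0.000338 in edgeR). Its counterpart in dividing progenitors, Actl6a, stood at 98.1, 100.9, 94.7 and 98.3 CPM in MD and 125, 126.6, 128.9 and 129.5 CPM in R42A, lower by a log2 change of -0.38 ± 0.05. Neither pair of groups overlapped. Ss18l1, the neuronal relative of Ss18, rose 1.98-fold, from 16.7, 18.3, 17.5 and 17.8 CPM to 34.4, 35.9, 35.5 and 33.3 CPM, and Dpf3, a subunit of the neuronal complex, 2.75-fold. Ss18 itself was not called (log2 change -0.09 ± 0.05, adjusted p = 0.18 in edgeR). Phf10, whose product belongs to the PBAF complex of progenitors, was also higher, 1.4-fold, a call lost without A10 (log2 change 0.43). Of 38 polycomb and DNA methylation genes 11 were higher and 10 lower (6 to 8 higher and 4 lower with 1 clone left out). The methyltransferase gene Dnmt3b fell 1.95-fold, from 61.7, 55.2, 53.1 and 60.4 CPM to 28.7, 29.6, 29.5 and 30.2 CPM, and the polycomb reader gene Cbx7 rose 1.85-fold. Of 43 imprinted genes 10 were higher and 11 lower (6 to 8 higher and 3 to 6 lower with 1 clone left out). The maternally expressed RNA Meg3 stood at 985.6, 996.8, 1045.2 and 995.7 CPM in MD and 358.1, 369.3, 345.1 and 342.4 CPM in R42A (2.85-fold). H19 and Igf2, neighbours with opposite imprints, went opposite ways: H19 rose 3.16-fold and Igf2 fell 4.09-fold. The Igf2 call was lost with any 1 clone left out (log2 change -2.05 to -2.02, adjusted p = 0.0513 to 0.0769) and without the filter on low counts.

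Long noncoding RNAs had 310 genes higher and 209 lower of 2792 tested (101 to 119 and 63 to 72 with 1 clone left out), and processed pseudogenes 81 and 204 of 2205 (23 to 41 and 60 to 84). Among called lncRNAs of at least 1 CPM without overlap between the genotypes, Dlx6os1 rose most. This RNA, transcribed at the locus of Dlx5 and Dlx6, stood at 2.53, 2.49, 3.02 and 1.99 CPM in MD and 0.111, 0.0674, 0.0775 and 0.144 CPM in R42A (25.7-fold). The largest decrease was Gm45889, at 0.622, 0.612, 0.957 and 0.538 CPM in MD and 3.93, 2.51, 3.53 and 3.17 CPM in R42A (4.7-fold). Whether counting used strand is not given in the sources used here, so RNA from overlapping genes cannot be told apart.

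Chromosomes 8 and 11 stood apart from the others. On chromosome 11, 872 of 1691 tested genes (51.6%) were called higher and 59 lower (600 to 648 and 26 to 32 with 1 clone left out), with a median log2 change of 0.48. On chromosome 8, 79 of 1207 were higher and 388 (32.1%) lower, with a median of -0.28. With 1 clone left out these counts were 31 to 38 and 177 to 195. Over the remaining chromosomes the median was -0.02. DNA copy number of the clones was not measured here, so a difference in copies between the clones and an effect of the tag on these chromosomes cannot be told apart. With each chromosome scaled separately the medians were 0.03 and 0.02, and 7486 genes were called. Named genes on chromosome 11, such as H3f3b, Mapt, Ebf1, Sox9 and Slc16a3, and on chromosome 8, such as Tpm4 and Cdh1, carry that shift. With each chromosome scaled separately these log2 changes were 0.65, 2.65, 2.39, 1.02, 1.66, -0.98 and -0.81, and all 7 still passed.

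**Figure D4:**
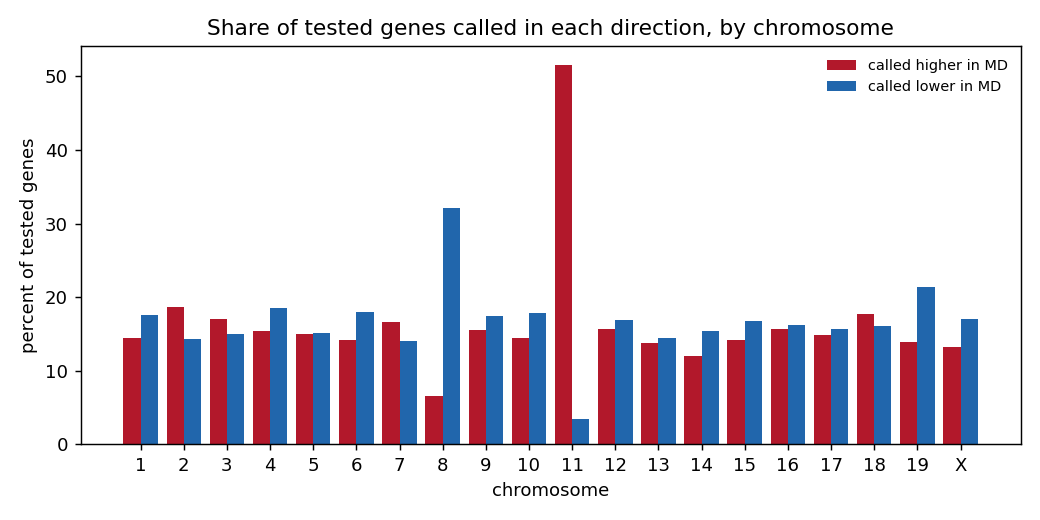
Percent of tested genes called higher (red) or lower (blue) in MD neural cultures, by chromosome (horizontal; Y left out). Chromosome 11 has 51.6% higher and 3.49% lower, chromosome 8 has 6.55% higher and 32.1% lower, and the other chromosomes lie between 12% and 21.3% in both directions.

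The MD effect in neural cultures was set beside that in ESC of the same 4 clone labels, from the same fit. The neural libraries have their own run of library numbers in the labels, so the stage cannot be told apart from the library series. The difference between the effects passed for 5475 genes (23.0%), and for between 2316 and 2445 with 1 neural clone left out. The neural effect was more negative than the ESC effect in 2638 (11.1%) and more positive in 2837 (11.9%). Among contractile and SRF target genes the neural effect was more negative in 27 of 34 and more positive in 0 (21 more negative and 0 more positive with 1 clone left out), with medians of -1.03 in neural cultures and 0.42 in ESC. Myl9 was 2.41 ± 0.15 in ESC and -2.93 ± 0.16 in neural cultures (log2), a difference of -5.33 ± 0.22 (adjusted p = 0.000172 in edgeR). In ESC its mean level was 5.52 CPM in R42A and 30.2 CPM in MD. Tagln differed by -7.09 ± 0.68 and Acta2 by -6.68 ± 0.81, Tpm1 by -3.64 ± 0.15, Cnn2 by -3.50 ± 0.11 and Srf by -1.34 ± 0.11. Each of these 6 genes was called higher in MD ESC and lower in MD neural cultures. Of the YAP and TEAD genes 13 of 30 had a more negative neural effect and 0 a more positive one (11 more negative and 0 more positive with 1 clone left out), with differences of -4.04 ± 0.34 for Ccn1 and -2.82 ± 0.12 for Ccn2. Of 22 yolk sac genes 13 differed the same way (6 to 10 more negative and 0 more positive with 1 clone left out), Lrp2 by -2.48 ± 0.24.

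In 21 of 34 glycolysis and hypoxia genes the neural effect was more positive and in 0 more negative (0 more negative and 13 to 16 more positive with 1 clone left out), with medians of 0.43 in neural cultures and -0.38 in ESC. Pfkp was -0.86 ± 0.10 in ESC and 1.94 ± 0.10 in neural cultures, a difference of 2.80 ± 0.14 (adjusted p = 0.000214 in edgeR). Presynaptic genes were more positive in neural cultures in 30 of 57 cases and more negative in 3 (1 more negative and 17 to 19 more positive with 1 clone left out). For cytoskeletal genes of neurons this was so in 21 and 1 of 35 (0 more negative and 18 more positive with 1 clone left out). Other neuronal lists went both ways: the effect was more positive in 8 and more negative in 10 of 41 Slit, netrin and ephrin genes (7 to 8 more negative and 5 to 6 more positive with 1 clone left out), in 8 and 6 of 31 semaphorin, plexin and neuropilin genes (2 to 4 more negative and 4 to 5 more positive with 1 clone left out) and in 10 and 6 of 54 ligand-gated receptor genes (3 to 4 more negative and 4 more positive with 1 clone left out). Scn3a was called lower in MD ESC and higher in MD neural cultures, a difference of 4.51 ± 0.30, and Cyp26b1 likewise, at 3.49 ± 0.17. Nes was higher in MD ESC and lower in MD neural cultures, with a difference of -2.68 ± 0.22. Some genes had similar values at both stages: Tmsb4x was -1.16 ± 0.07 in ESC and -1.15 ± 0.07 in neural cultures, and Slc7a11, a cystine transporter gene, 2.10 ± 0.19 and 2.20 ± 0.17, and the differences between stages, 0.01 ± 0.10 and 0.11 ± 0.25, were not called (edgeR adjusted p = 0.979 and 0.806).

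**Figure D5:**
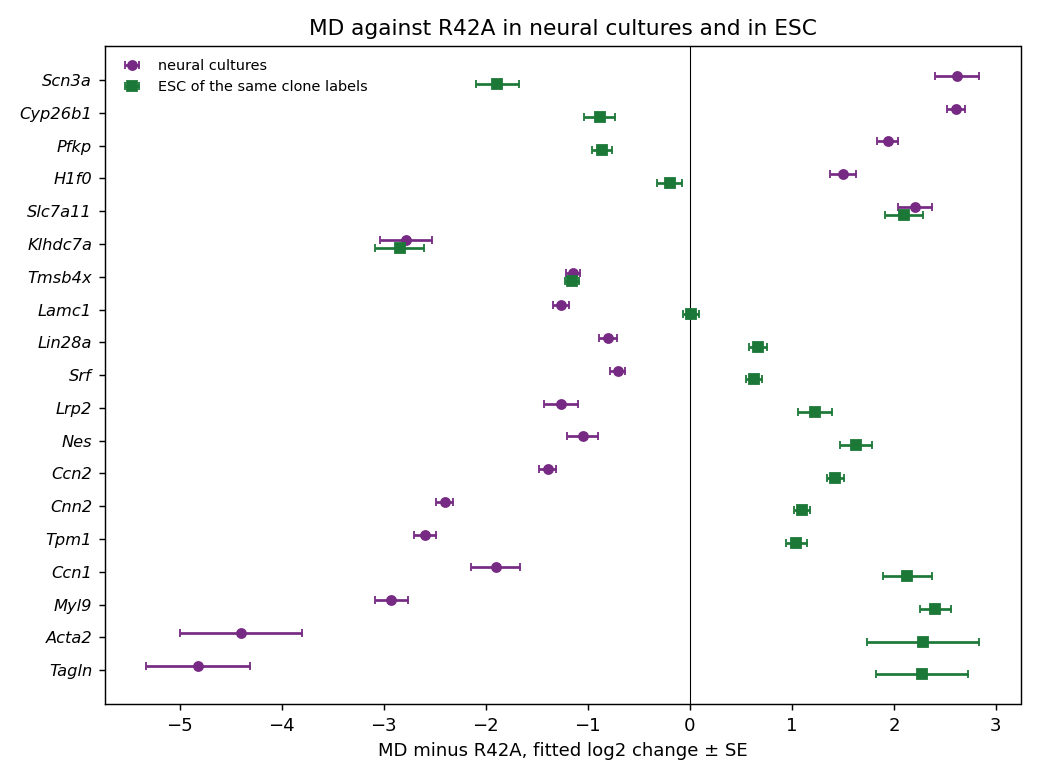
Fitted log2 change of MD against R42A with its SE (horizontal) for 19 genes, in neural cultures (purple circles) and in ESC of the same clone labels (green squares), from a fit with 2 clone sums per group. Contractile genes such as Myl9 and Cnn2 lie to the right in ESC and to the left in neural cultures, Scn3a, Cyp26b1 and Pfkp the reverse, and the points of Tmsb4x, Klhdc7a and Slc7a11 lie close together.

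Few genes separated the clones of a genotype. The largest differences between 09 and 30 among genes of at least 10 CPM were in Lars2, Gm20431, Gm42418 and Gm26917. Lars2 stood at 106.8, 177.6, 311 and 236.5 CPM in MD, with a difference between the clones (log2 ratio -0.97), and at 154.4, 270.5, 232.8 and 246.8 CPM in R42A. Between A04 and A10 the largest differences were in Nrk, Gm13464, Trib3 and mt-Nd6, with log2 ratios of 0.56, -0.43, 0.43 and -0.39. Libraries of the same clone differed too in some of these genes. Trib3 stood at 21.7 and 31.6 CPM in A04 and at 19.2 and 20.6 CPM in A10. These values carry no test.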

How the data were processed

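RNA-seq of 8 neural libraries was analysed, with ESC libraries of the same 4 clone labels in the same fit. The authors deposited a table for each library with the expected count of every gene, without normalisation. Per the submitters' processing notes, Trim Galore 0.60, STAR 2.7.1a, RSEM 1.3.0, DESeq2 (no version) and the build mm10 were used, with no roles given. The annotation release and the use of strand are not given in the sources used here. Between 1.54% and 1.70% of values were not whole (tolerance 1e-06). Tables hold 55665 entries, of which 92 are ERCC sequences with no counts. Of 55573 genes, 55480 were matched to GENCODE M21 for positions, and 1562 Y-linked genes were left out before the fit.

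Counts were rounded, summed per clone (2 neural or 3 ESC libraries) and fitted as 4 groups with edgeR 4.0.16 in R 4.3.3 (TMM, filterByExpr with a minimum count of 10, robust quasi-likelihood test, Benjamini-Hochberg adjustment over 23823 genes), after tests on simulated data. Alternatives used DESeq2 1.42.0, limma 3.58.1, other scalings, no filter, the neural sums alone, libraries as replicates, and each clone or library left out. Promoter windows came from RefSeq on GRCm38.p6, 250 bases before to 50 after a start, for 27025 genes.

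The 57 lists, the members and the rule for named genes were chosen with earlier results of these data known. Among called protein-coding genes of at least 5 CPM without overlap between the genotypes, the rule names the 12 largest increases and the 12 largest decreases. It adds the 6 largest gains and losses in CPM among called protein-coding genes with 2-fold changes. Up to 3 called members of each list in each direction of at least 1 CPM follow, with Smarce1 and cell type markers. Among called lncRNAs of at least 1 CPM without overlap, it names the 4 largest increases and decreases. The 4 genes of at least 10 CPM that differed most between the clones of each genotype are named too. Last come the 5 largest positive and 5 largest negative differences from ESC that passed, of at least 5 CPM in 1 group. The text gives part of these, and some of the genes the rule names are not reported here. Other named genes were chosen after their values were seen.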

Additional observations from a re-analysis of the deposited data

Results flagged for a closer look

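In 18 of 402 groups of 4 libraries, 1 library lay far from the other 3 of its genotype, by a gap that took up most of their range, and chance alone gives about 1 in 20 groups. Among MD libraries, Chgb stood at 28.4 CPM in library 1 of 09, below the 30.7 to 31.2 CPM of the other 3 MD libraries. Itga3 stood at 12.5 CPM in library 1 of 09, below the 13.8 to 13.9 CPM of the other 3 MD libraries. Kcnh7 stood at 6.03 CPM in library 1 of 30, above the 5.26 to 5.39 CPM of the other 3 MD libraries. Lamb1 stood at 199.9 CPM in library 2 of 09, above the 163.2 to 168.5 CPM of the other 3 MD libraries. Myh9 stood at 180.4 CPM in library 2 of 09, above the 166.2 to 166.6 CPM of the other 3 MD libraries. Ptbp1 stood at 417 CPM in library 2 of 30, above the 392.2 to 394.7 CPM of the other 3 MD libraries. Snap25 stood at 20.2 CPM in library 2 of 30, below the 22.2 to 22.5 CPM of the other 3 MD libraries. Sox10 stood at 1.18 CPM in library 2 of 09, above the 0.729 to 0.789 CPM of the other 3 MD libraries. Ss18 stood at 117.8 CPM in library 1 of 30, above the 116.3 to 116.5 CPM of the other 3 MD libraries. Ttr stood at 2.87 CPM in library 2 of 09, above the 2.32 to 2.4 CPM of the other 3 MD libraries. Among R42A libraries, Aqp4 stood at 2.09 CPM in library 2 of A04, below the 2.76 to 2.87 CPM of the other 3 R42A libraries. Atf4 stood at 241.4 CPM in library 2 of A04, above the 213.6 to 216.3 CPM of the other 3 R42A libraries. Cacna2d1 stood at 13.7 CPM in library 1 of A10, above the 12.2 to 12.4 CPM of the other 3 R42A libraries. Gadd45a stood at 14.3 CPM in library 2 of A04, above the 11.3 to 11.7 CPM of the other 3 R42A libraries. Slc7a3 stood at 71.9 CPM in library 2 of A04, above the 53.2 to 55.9 CPM of the other 3 R42A libraries. Sox1 stood at 163.3 CPM in library 1 of A10, below the 176 to 176.8 CPM of the other 3 R42A libraries. St18 stood at 12.4 CPM in library 1 of A10, above the 9.82 to 10.2 CPM of the other 3 R42A libraries. Tagln stood at 94.3 CPM in library 1 of A04, below the 106.4 to 108.3 CPM of the other 3 R42A libraries.

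For 13 of the genes whose ESC values the report sets beside the neural ones, the MD effect differed between the stages, by the contrast of the 2 effects in edgeR. The neural effect minus the ESC effect, in log2, was negative for Tagln -7.09 (adjusted p = 0.000985), Acta2 -6.68 (adjusted p = 0.00209), Myl9 -5.33 (adjusted p = 0.000172), Ccn1 -4.04 (adjusted p = 0.000673), Tpm1 -3.64 (adjusted p = 0.000172), Cnn2 -3.50 (adjusted p = 8.11e-05), Ccn2 -2.82 (adjusted p = 0.000172), Nes -2.68 (adjusted p = 0.000638), Lrp2 -2.48 (adjusted p = 0.000982) and Srf -1.34 (adjusted p = 0.000606). It was positive for Scn3a 4.51 (adjusted p = 0.000344), Cyp26b1 3.49 (adjusted p = 0.00021) and Pfkp 2.80 (adjusted p = 0.000214). In this contrast the stage cannot be told apart from the library series.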

How the results depend on the processing

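Of 185 named genes that were called, 163 passed under every one of 22 settings that gave an adjusted p. Leaving out a clone gave the fewest calls: genes called went from 8018 to between 3759 and 3963 without a clone and up to 7985 without a library, genes at least 2-fold changed from 2541 to between 1534 and 1589 without a clone and up to 2488 without a library, and genes whose effect differed from that in ESC from 5475 to between 2316 and 2445 without a clone and up to 5319 without a library. The remaining clone of that genotype was then assumed to vary like the other groups. More genes were called with neural clone sums alone (13632), with libraries as replicates (12710), with limma voom and the clone as a random block (13430) and with the replicate block (13199), so that the main fit gives the smaller count. Replicate numbers were not taken to pair the libraries in the main fit, since nothing in the labels ties them to a shared batch. Between the genotypes, correlations of deviations ran from -0.067 to 0.483 for the same number and from -0.455 to 0.038 for different numbers. Over 10725 genes the difference between numbers 1 and 2 correlated by 0.52 between the genotypes. Libraries of the same number thus tended to deviate alike, and the reason was not tested. Libraries numbered 1 alone and numbered 2 alone, chosen after seeing the data, called 7014 and 6786 genes. DESeq2 called 8418, DESeq2's size factors in edgeR 7950 and the fit with no filter on low counts 7357. Of 16 named genes not called in the main fit, most were called with neural clone sums alone, libraries as replicates and limma voom. These were Aldh1l1, Foxa2, Foxd3, Gata4, Gata6, Krt8, Krt18, Pax6, Sox1, Sox17 and Ss18. Pou5f1 and Zfp42 were called under some of these settings.

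The median change on chromosome 8 was -0.276, and it became 0.019 with each chromosome scaled separately, -0.265 with no filter, -0.304 with libraries numbered 2 and -0.319 to -0.253 when a clone or library was left out. The median on chromosome 11 was 0.476, and it became 0.030 with each chromosome scaled separately, 0.487 with no filter, 0.506 with neural clone sums alone, 0.509 with libraries as replicates, 0.510 with the replicate block, 0.510 with limma voom, 0.460 with libraries numbered 2 and 0.442 to 0.513 when a clone or library was left out. With each chromosome scaled separately the log2 change of Smarce1 was -0.104, that of Actg1 -0.392, that of Birc5 -0.204 and that of Hmmr -0.127. These 4 genes lie on chromosome 11, and that scaling takes the shift of the chromosome out by construction. The difference of the MD effect between neural cultures and ESC, near 0 for Tmsb4x and Slc7a11, changed sign for Tmsb4x with DESeq2's size factors (-0.026), in DESeq2 (-0.024), with libraries numbered 1 (-0.037) and with a clone or library left out (-0.057 at the lowest, 0.074 at the highest). For Slc7a11 it changed sign with libraries numbered 2 (-0.008) and without the first library of 30 (-0.035, against up to 0.205 without other libraries), and the log2 change of Phgdh, not called, was -0.038 with libraries numbered 2; the cause was not tested. The sign of the median changed under at least 1 setting for 11 of 57 lists, none of which the report describes by the sign of its median except forebrain and eye-field factors (-0.047 without the first library of 30).

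Precision is limited by 2 clone labels per genotype, which leave 4 residual degrees of freedom in the fit of 4 groups. Genes below about 1 CPM, such as Hox genes, rest on few counts per library.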

Other observations

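A group outside the lists of the report was assembled after the values were seen, so its counts are descriptions only: 33 genes of the amino acid and integrated stress response, whose main driver is the transcription factor ATF4. All 33 were tested, and 29 were higher in MD neural cultures, 0 lower and 4 not called, with 14 at least 2-fold higher. With 1 clone left out 22 to 26 were called higher and 0 lower. The median log2 change was 0.78 in neural cultures and 0.08 in ESC of the same clone labels, against -0.001 and -0.019 over all genes tested. Only 1 of the 29 lies on chromosome 11.

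Atf4 itself stood at 304.8, 315.5, 308.8 and 296 CPM in MD and 213.6, 241.4, 216.3 and 216.2 CPM in R42A, a 1.38-fold difference (adjusted p = 0.0105 in edgeR) that was not called with any 1 clone left out (log2 change 0.42 to 0.50, adjusted p = 0.0539 to 0.0832). The largest increase was that of Slc7a11, the cystine importer, at 139.2, 148.4, 164.1 and 123.7 CPM in MD and 29.7, 36.1, 32.3 and 27.6 CPM in R42A. Stc2, which encodes a secreted glycoprotein and lies on chromosome 11, rose 3.58-fold. Ddit3, the factor CHOP of the stress response, rose 2.72-fold, from 8.1, 10.8, 10 and 9.42 CPM to 25.1, 29.4, 26.1 and 23.8 CPM. Enzymes of serine and asparagine synthesis rose: Psph, the last step of serine synthesis, 2.34-fold, Psat1 1.45-fold and Asns, the asparagine synthetase, 2.03-fold. Phgdh, the first step of serine synthesis, was not called (log2 change 0.06 ± 0.05). The amino acid transporter gene Slc7a3 rose 2.39-fold.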
